A study of Mus musculus with 68 samples.

Results

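Ccr2, F13a1, Clec4a1, Ifitm6, Ly6c2, Ms4a4c, Ms4a6c, Clec4e and Plac8 are genes that mouse monocytes transcribe. They were picked by name because their read counts were higher in lung 2 h after an injection of Egf, so the lung values at that time describe the choice and carry no test. All 9 were found once each among the 56748 genes of the count table. They were then followed through 68 libraries of polyadenylated RNA from lung, heart, kidney and liver.

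The mice were wild-type C57BL/6J females aged 10 weeks. Egf was given at 1 mg/kg in phosphate-buffered saline into the retro-orbital sinus under isoflurane, and vehicle mice received the saline alone by the same route. Organs were harvested 2 h or 6 h later, and a further group was left untreated. Each organ has 17 libraries, which are 4 from Egf mice and 3 from vehicle mice at each time and 3 from untreated mice. The labels do not say which libraries of different organs came from the same mouse. They also do not say that the replicates of a group were separate mice, and if they were not, the p-values measure technical spread alone.

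Classical monocytes leave the bone marrow through Ccr2, the receptor for the chemokines Ccl2, Ccl7 and Ccl12, and circulate with much Ly6C on their surface. In the lung they lie in the capillary bed and along the vessel wall and can enter the tissue, where they become macrophages or dendritic cells. Their nonclassical relatives carry little Ly6C and Ccr2 and patrol the vessel wall. No step that washes blood out of the organs is given in the sources used here, so blood in the vessels counts with the organ. In whole organs, more cells of a type and more RNA per cell cannot be told apart.

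The members fall into 4 roles. Ccr2 (chromosome 9, 123901987 to 123913594, plus strand; coordinates are those of the deposited table, build mm39) is the homing receptor. F13a1 (chromosome 13, 37051152 to 37234220, minus strand) encodes the A subunit of coagulation factor XIII, which cross-links fibrin. Clec4a1 (chromosome 6, 122898807 to 122911578, plus strand) and Clec4e (chromosome 6, 123258748 to 123266829, minus strand) encode C-type lectin receptors, and the Clec4e product is Mincle, a receptor for the mycobacterial cord factor. The remaining genes encode small membrane or cysteine-rich proteins. Ly6c2 (chromosome 15, 74980007 to 74983819, minus strand) encodes a Ly6C protein anchored in the outer leaflet of the cell membrane, Ifitm6 (chromosome 7, 140595612 to 140597837, minus strand) belongs to the interferon-induced transmembrane family, and Ms4a4c (chromosome 19, 11382134 to 11404610, plus strand) and Ms4a6c (chromosome 19, 11446730 to 11459556, plus strand) belong to the Ms4a family of membrane proteins. Plac8 (chromosome 5, 100701591 to 100720111, minus strand) encodes a cysteine-rich protein of myeloid cells that epithelia also make.

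Some members have close copies in the genome. Of the 50-base words of a Ly6c2 transcript, 33.0% also occurred in transcripts of other genes and 32.6% in Ly6c1. The shared part was 11.3% for Ms4a6c, 8.5% for Ms4a4c and 3.7% for Ccr2, and 0 for the other 5 genes. The libraries were not directional, so overlapping genes on opposite strands were not separated, and the Ly6c2 counts in particular depend on how the authors treated reads that match several genes.

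The promoters are shown because the members moved together in lung. RefSeq windows of the 250 bases before the start were found for all 9 genes, 12 windows in all on build GRCm38.p6. The purine-rich core GGAAGT, which PU.1 and other Ets factors of myeloid cells bind, was searched on either strand. It occurred in 6 of the 12 member windows and in 19.74% of all 32851 windows. The 6 windows belong to 5 members, and 2 of the 6 are windows of Ly6c2 that overlap. The core stands in capitals, as GGAAGT or as its reverse complement ACTTCC, in the sequences of 4 of these members, given 5′ to 3′ along the gene. The RefSeq starts of Ly6c2 and of Clec4e were not among the starts of the annotated transcripts used for comparison.
Ifitm6, chr7:141016893-141017142, minus strand: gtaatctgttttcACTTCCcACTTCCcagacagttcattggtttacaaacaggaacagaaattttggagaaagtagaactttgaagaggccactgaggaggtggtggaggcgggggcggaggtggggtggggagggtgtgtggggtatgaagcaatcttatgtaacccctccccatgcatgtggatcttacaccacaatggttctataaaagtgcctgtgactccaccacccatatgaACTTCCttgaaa
Ly6c2, chr15:75111938-75112187, minus strand: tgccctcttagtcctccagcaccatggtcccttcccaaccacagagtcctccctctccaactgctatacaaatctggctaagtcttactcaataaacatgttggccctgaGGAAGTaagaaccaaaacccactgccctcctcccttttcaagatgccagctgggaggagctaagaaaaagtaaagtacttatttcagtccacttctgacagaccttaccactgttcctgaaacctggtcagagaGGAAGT
Ms4a4c, chr19:11407411-11407660, plus strand: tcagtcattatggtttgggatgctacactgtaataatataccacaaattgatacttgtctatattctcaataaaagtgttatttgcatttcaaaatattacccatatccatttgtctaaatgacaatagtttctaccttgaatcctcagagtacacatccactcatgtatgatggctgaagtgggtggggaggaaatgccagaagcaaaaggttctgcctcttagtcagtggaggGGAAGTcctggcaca
Ms4a6c, chr19:11469118-11469367, plus strand: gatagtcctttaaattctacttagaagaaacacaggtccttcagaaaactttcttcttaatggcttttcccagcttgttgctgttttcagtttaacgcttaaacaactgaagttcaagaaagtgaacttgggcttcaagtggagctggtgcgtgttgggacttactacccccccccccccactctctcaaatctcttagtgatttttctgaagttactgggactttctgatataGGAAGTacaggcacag
The fifth member with this core was F13a1, in 1 of its windows. The longer PU.1 sequence GAGGAAGT, which contains the core, was found among the members only in the Ly6c2 windows and occurred in 2.44% of all windows. The interferon-stimulated response element, searched as GAAA repeated after any 2 bases, was in no member window, against 2.98% of all windows. The C/EBP motif TTGCNNAA was in 2 of the 12 member windows, those of Clec4e and Plac8, against 9.56% of all windows. These matches describe letters in short windows only.

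In untreated lung Plac8 had the most reads per length and Clec4e the fewest. In RPKM, which scale reads by gene length and library size (here from 1 fit over all 68 libraries), Plac8 was at 22.6 ± 9.59 and Ly6c2 at 7.43 ± 4.09 (SD, n = 3 each, as for all untreated values). The next 6 genes lay close together between 2.31 ± 0.258 RPKM for F13a1 and 3.53 ± 1.45 RPKM for Ms4a4c, with overlapping spreads between neighbours in the order. Ly6c2 and Ms4a4c also overlapped in their spread, while Plac8 stood above and Clec4e below all others. Clec4e was at 0.254 ± 0.0195 RPKM. The wide spread of Ly6c2 and Plac8 came from untreated replicate 1, whose lung level was 51.6 CPM for Ly6c2 and 83.2 CPM for Plac8. CPM, here and below, are counts scaled to library size by each organ's separate fit, unless another scale is named. Where untreated organs are compared with one another, CPM are on the scale of the fit over 68 libraries. Sums over lists of marker genes are CPM of the library total. The other untreated lungs had 19.6 and 23.4 CPM of Ly6c2 and 45.2 and 39.1 CPM of Plac8.

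The same replicate number stood apart for interferon-stimulated genes. A list of 18 such genes summed to 914 CPM of the library total in the lung of untreated replicate 1, against 353 to 461 CPM in the other 16 lung libraries. In the libraries of untreated replicate 1 of the other organs the sum was 333 CPM in heart, against 118 to 263 CPM, 315 CPM in kidney, against 112 to 169 CPM, and 633 CPM in liver, against 295 to 424 CPM. The medians of comparisons with untreated mice within an organ, and the calls between organs, are therefore given with and without this replicate, and its part in them was not otherwise tested. Other libraries carried transcripts of another organ. Hepatocyte genes summed to 15564 and 13652 CPM in untreated hearts 1 and 3, where the median heart had 1058 CPM, and to 26537 CPM in Egf lung replicate 3 at 6 h, where the median lung had 408 CPM. Kidney tubule genes summed to 1119 CPM in untreated heart 2, where the median heart had 12.5 CPM. The comparison of untreated lung with untreated heart rests on these hearts, and their part in it was not tested.

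Across organs the members had their highest untreated levels in lung, with 1 exception. The members were chosen for a rise in lung, which favours genes with reads there, so the calls below are in part a result of that choice. Clec4e entered the fit over 68 libraries through lung alone, since no fit of another organ tested it. In the fit over 68 libraries, 7 of 9 members were higher in untreated lung than in untreated heart, 9 of 9 were higher than in kidney and 7 of 9 were higher than in liver at an adjusted p under 0.05 (edgeR quasi-likelihood test, Benjamini-Hochberg adjustment over 18736 genes, and in the organs' own fits over all genes tested there). Whole organs differ in most of their genes: 66.3% of all genes tested passed against heart, 63.8% against kidney and 71% against liver, with either sign. The median log2 difference of the members was 2.72 against heart, 3.97 against kidney and 2.32 against liver, where all genes had medians of -0.00, -0.10 and 0.23. Without untreated lung replicate 1, 7 members passed against heart, where 8 passed with it, 9 against kidney and 6 against liver, and the counts against heart include F13a1, which was lower in lung.

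Ly6c2 had the largest difference from heart among the members. It was at 20.4 ± 11.2 CPM in untreated lung, against 0.831 ± 0.288 CPM in untreated heart on the scale of the 68 libraries, a log2 difference of 4.60 ± 0.50 (SE, adjusted p = 1.33e-11), and of 4.06 without untreated lung replicate 1, where it also passed. Ccr2 had 19.7 ± 4.60 CPM in lung, against 2.96 ± 0.969 CPM in heart, 2.85 ± 0.601 CPM in kidney and 2.22 ± 0.351 CPM in liver, and every untreated lung lay above every untreated library of the other organs. Heart, kidney and liver overlapped one another for Ccr2.

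F13a1 was the exception, since heart exceeded lung. On the scale of the 68 libraries it had 15.6 ± 1.74 CPM in lung and 45.9 ± 7.17 CPM in heart. The log2 difference of lung from heart was -1.56 ± 0.28 (adjusted p = 3.43e-06) and also passed without untreated lung replicate 1. In kidney F13a1 had 0.912 ± 0.659 CPM and in liver 0.567 ± 0.147 CPM. Lung and heart did not overlap. Clec4a1 was at 5.14 ± 0.846 CPM in lung, 3.48 ± 1.00 CPM in heart, 3.60 ± 1.55 CPM in liver and 0.603 ± 0.173 CPM in kidney, and its lung level passed the test against kidney only (log2 difference 3.06 ± 0.30, adjusted p = 3.87e-13).

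Clec4e had no read in any untreated kidney. Against a floor of 3 reads over these kidneys, its 1.26 ± 0.0968 CPM in untreated lung were at least 28.1-fold higher. Plac8 had the highest level outside the lung after F13a1 in heart, with 36.0 ± 15.3 CPM in lung, 18.9 ± 9.90 CPM in liver, 9.98 ± 1.94 CPM in kidney and 2.84 ± 1.36 CPM in heart. Lung and liver overlapped for Plac8, and the difference of 0.93 ± 0.49 did not pass (adjusted p = 0.0837).

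**Figure D1:**
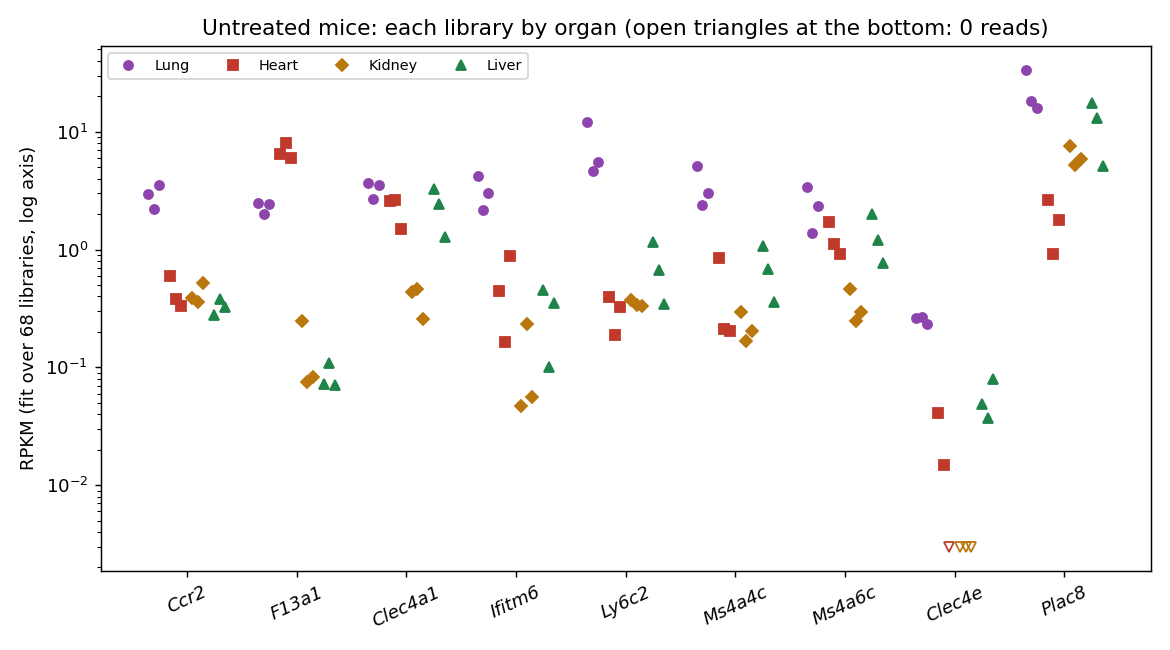
Each point is 1 untreated library of lung, heart, kidney or liver (3 per organ), and the log axis gives RPKM on the scale of the fit over 68 libraries. Lung points stand highest for most members, heart stands highest for F13a1, and the kidney libraries hold no Clec4e read.

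Ms4a6c and Clec4a1 were the members nearest the threshold between organs. The adjusted p of Ms4a6c was 0.0209 against heart (log2 difference 0.91 ± 0.35) and 0.0318 against liver (0.84 ± 0.35). Without untreated lung replicate 1 these adjusted p-values were 0.201 and 0.257, and Ms4a6c also lost its call against heart without untreated heart replicate 2 or 3 and against liver without untreated liver replicate 2 or 3. Clec4a1 had differences of 0.55 ± 0.26 against heart (adjusted p = 0.0577) and 0.51 ± 0.26 against liver (adjusted p = 0.0752), and passed against both without untreated lung replicate 2, against heart without untreated heart replicate 2, and against liver without untreated liver replicate 1. Plac8 passed against liver without untreated liver replicate 1. All 9 members passed against kidney whichever library was left out.

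At 2 h the lung levels that led to the choice of the genes were higher after Egf for all 9 members. Log2 changes ran from 0.55 to 1.89 with a median of 1.41, where the median of all genes tested in lung was -0.00. Of all 16778 genes tested in lung 0.84% passed an adjusted p of 0.05. No calls are given for the members, since this contrast chose them. Groups without overlap were found for 8 of 9 members and for 9.61% of all genes, a difference that the choice of genes also brings about.

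The homing receptor Ccr2 had 87.1, 58.8, 47.6 and 59.1 CPM in the 4 Egf lungs, against 19.7, 22.7 and 17.8 CPM in the 3 vehicle lungs. Every Egf lung was above every vehicle lung, and the fitted change was 1.65 ± 0.20 on the log2 scale (SE), or 3.15-fold. F13a1 had 78.0, 52.1, 56.6 and 55.3 CPM after Egf, against 20.5, 20.4 and 18.4 CPM after vehicle. Its groups did not overlap either, and its change was 1.61 ± 0.18.

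Among the other genes of small membrane proteins Ifitm6 had the largest change and Ms4a4c the smallest. Ifitm6 had 11.7, 6.97, 7.16 and 7.64 CPM after Egf, against 2.53, 1.76 and 2.47 CPM after vehicle, a log2 change of 1.89 ± 0.25. Ly6c2 had 72.0, 59.2, 40.9 and 47.9 CPM after Egf, against 15.7, 20.03 and 21.7 CPM after vehicle (1.52 ± 0.28). Neither gene overlapped between the groups. Ms4a6c lay between 11.4 and 18.3 CPM after Egf, against 4.94 to 5.84 CPM after vehicle (1.41 ± 0.29), and Ms4a4c between 10.2 and 16.8 CPM, against 4.31 to 8.91 CPM (1.26 ± 0.30).

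The lectin receptors differed in their spread. Clec4a1 lay between 9.97 and 15.1 CPM after Egf, against 4.60 to 5.84 CPM after vehicle (1.31 ± 0.17). Clec4e had 9.10, 8.15, 5.27 and 4.24 CPM after Egf, against 2.22, 2.89 and 2.64 CPM after vehicle (1.37 ± 0.28), so its Egf lungs fell into a higher and a lower pair. Plac8 was the only member whose groups overlapped, with 71.3, 67.2, 47.8 and 77.1 CPM after Egf, against 34.4, 55.7 and 45.2 CPM after vehicle (0.55 ± 0.26).

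**Figure D2:**
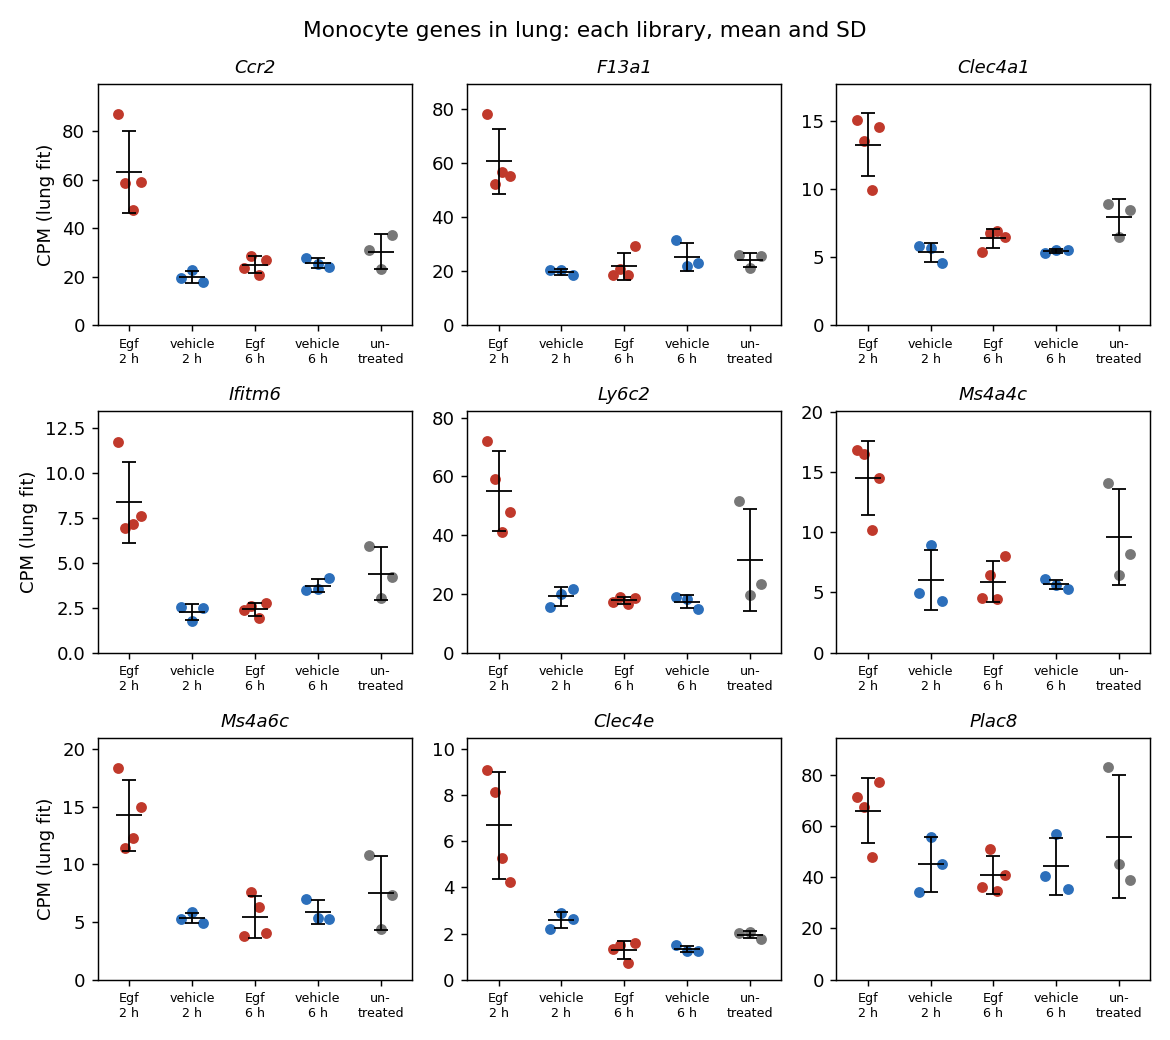
Each point is 1 lung library in CPM on the lung fit's scale, with the group mean and SD (Egf n = 4, vehicle and untreated n = 3). The Egf lungs at 2 h lie above all vehicle lungs for every member but Plac8, and the Egf and vehicle groups at 6 h lie together except for Ifitm6.

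The 4 Egf lungs at 2 h did not move as 1 block. Summed over the 9 members they held 380, 294, 238 and 295 CPM, against 111, 144 and 122 CPM in the vehicle lungs. Egf replicate 1 was highest for Ccr2, F13a1, Clec4a1, Ifitm6, Ly6c2, Ms4a4c, Ms4a6c and Clec4e, and replicate 3 had the lowest sum. Untreated lungs held 234, 131 and 155 CPM.

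Set against untreated lungs, the Egf lungs at 2 h were again higher for 9 of 9 members, by 0.24 to 1.77 with a median log2 change of 0.92, and by a median of 1.21 without untreated replicate 1. This comparison shares the Egf lungs with the one that chose the genes. The vehicle lungs at 2 h were lower than untreated lungs for 8 of 9 members, the exception being Clec4e, with a median log2 change of -0.57. Without untreated replicate 1 the median was -0.23 and 7 of 9 members were lower.

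By 6 h no member passed the test between Egf and vehicle lungs. Of the 9 members 0 passed, and 0% of the 16778 genes passed either (907 genes had an unadjusted p under 0.05). The log2 changes ran from -0.62 to 0.22 with a median of -0.05, and 3 of 9 were positive. Ccr2 had 23.6, 28.4, 20.6 and 27.1 CPM after Egf, against 27.8, 25.5 and 23.98 CPM after vehicle, and its change of -0.05 had a 95% interval from -0.42 to 0.32. The Egf and vehicle lungs overlapped at this time for Ccr2. The difference between the 2 h and 6 h changes was not tested, because the 2 h lungs chose the genes.

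Ifitm6 was the only 1 of the 9 members whose groups did not overlap at 6 h, where 4.88% of all genes did not overlap, and it was lower after Egf. It had 2.36, 2.61, 1.95 and 2.74 CPM after Egf, against 3.47, 3.55 and 4.14 CPM after vehicle, a log2 change of -0.62 ± 0.24 that did not pass (adjusted p = 0.902). Between the Egf groups, all 9 members were lower at 6 h than at 2 h, with log2 differences from -2.38 to -0.69 and a median of -1.39. The Egf lungs at 2 h are again those on which the genes were chosen, so these differences are a description.

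No member passed between vehicle lungs at 6 h and untreated lungs. Of the 9 members 0 passed, beside 0.101% of all genes, and the median log2 change was -0.35. Ly6c2 had 18.9, 18.4 and 14.8 CPM in vehicle lungs, against 51.6, 19.6 and 23.4 CPM in untreated lungs, where replicate 1 is the high value (-0.86 ± 0.29, adjusted p = 0.378). Clec4a1 had 5.33, 5.57 and 5.52 CPM in vehicle lungs, against 8.91, 6.46 and 8.49 CPM in untreated lungs (-0.54 ± 0.18, adjusted p = 0.369). Without untreated replicate 1 the median over members was -0.22 and 4 of 9 were positive.

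Whether the other organs follow the lung was asked in libraries that the choice of genes had not used, and no member passed the test for Egf against vehicle at 2 h there. In heart 0 of 7 members tested passed (0.211% of all genes), in kidney 0 of 7 (0.256%) and in liver 0 of 6 (3.92%). The median log2 changes over the members tested were 0.23 in heart, 0.16 in kidney and 0.32 in liver, with 5 of 7, 5 of 7 and 6 of 6 positive. All genes had medians of -0.02, -0.01 and -0.02. Since the members were chosen on lung, a test of whether lung differs from the other organs was not run, and the values are given side by side.

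Read numbers behind these values differed between members. F13a1 had a median of 703 reads in heart, where lung had 453, and Plac8 had 224 in kidney and 183 in liver. Ccr2 had 310 to 1580 reads in the lung libraries, but 21 to 67 in heart, 27 to 70 in kidney and 10 to 42 in liver. Clec4e had at most 17 reads in a library of heart, 3 in kidney and 5 in liver and could be tested in none of them. Ms4a4c was not tested in heart, Ifitm6 not in kidney, and F13a1 and Ifitm6 not in liver.

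Ccr2 overlapped between Egf and vehicle in every organ outside the lung. In heart it had 1.20, 3.25, 2.07 and 2.12 CPM after Egf, against 1.40, 2.38 and 1.23 CPM after vehicle, a log2 change of 0.37 with a 95% interval from -0.32 to 1.07. The changes were 0.08 (-0.45 to 0.60) in kidney and 0.34 (-0.37 to 1.04) in liver.

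F13a1 separated the groups in kidney, at a low level, and not in heart, where its level was far higher. In kidney it had 1.43, 1.30, 2.21 and 1.49 CPM after Egf, against 0.504, 0.318 and 0.581 CPM after vehicle, so that the groups did not overlap, and the log2 change was 1.76 ± 0.43 (adjusted p = 0.128). The DESeq2 Wald test called it, with a change of 1.78 and an adjusted p of 0.0269, and the adjusted p ran from 0.0269 to 0.467 over 12 other settings. Transcripts of the adrenal cortex moved with these kidneys. The 4 genes of that list summed to 14.98, 2.04, 45.0 and 16.9 CPM in the Egf kidneys, against 2.15, 1.46 and 1.37 CPM in the vehicle kidneys. Of these 4 genes 1 was higher at an adjusted p of 0.05, beside 0.256% of all genes, and the median log2 change was 5.81. Egf kidney replicate 3 was highest for both the list and F13a1, and without it the F13a1 change was 1.56 (adjusted p = 0.204). The part of these transcripts in the F13a1 values was not tested. In heart it had 40.9, 34.0, 33.4 and 34.7 CPM after Egf, against 37.4, 41.5 and 43.0 CPM after vehicle, a change of -0.18 with a 95% interval from -0.44 to 0.07. The kidney vehicle libraries at 2 h were also below those of untreated mice, at 1.94, 0.586 and 0.634 CPM, and of vehicle mice at 6 h, at 1.33, 1.19 and 0.774 CPM.

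F13a1 was also the only member that passed the test of whether the 2 h response to Egf differed among heart, kidney and liver. The test over 68 libraries gave an adjusted p of 0.0092, with the heart change 1.94 ± 0.49 below the kidney change on the log2 scale, and 2.54% of all genes passed it. In liver F13a1 had 0.530, 0.336, 0.630 and 0.565 CPM after Egf, against 0, 0.249 and 0.0698 CPM after vehicle. The groups did not overlap, but single reads decide such values. The other members apart from Clec4e had adjusted p-values from 0.490 to 0.999 in this test. Clec4e entered the fit through lung alone, so its value is not given. Ifitm6 in kidney and liver, Ms4a4c in heart and F13a1 in liver had too few reads for those organs' own fits. For Ifitm6 and Ms4a4c a high p therefore does not show a like response.

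Ly6c2 had higher levels in all Egf libraries than in all vehicle libraries of heart and of liver, without passing the test. In heart it had 0.553, 1.21, 2.68 and 0.938 CPM after Egf, against 0.446, 0.461 and 0.352 CPM after vehicle (1.68 ± 0.70, adjusted p = 0.635), and the change was 1.09 without Egf replicate 3, the highest library. B cell genes also stood out in that library, at 19.3 CPM in sum, where the other Egf hearts had 0.909 to 5.68 CPM and the vehicle hearts 1.09 to 1.64 CPM. Signs of RNA quality separated the same hearts. Of the counted reads, the share of the 18S ribosomal RNA entry Rn18s-rs5 was 1.01% to 1.66% after Egf and 0.537% to 0.803% after vehicle, and the share of mitochondrial transcripts was 12.03% to 15.96% after Egf and 17.3% to 20.1% after vehicle. The part of these differences in the heart values was not tested. In liver Ly6c2 had 1.77, 2.24, 2.33 and 1.57 CPM, against 0.861, 1.25 and 0.768 CPM (1.03 ± 0.44, adjusted p = 0.258). Egf liver replicate 1 held 123 CPM of adrenal cortex genes, where the other livers at 2 h had 0.658 to 2.15 CPM. The share of Rn18s-rs5 was 0.0126% in vehicle liver replicate 2, against 1.51% to 3.47% in the others. The part of these in the liver values was not tested. The kidney groups overlapped for Ly6c2, with a change of 0.16 and a 95% interval from -0.62 to 0.95.

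Ifitm6 followed a like pattern at very low levels. In heart it had 0.599, 0.678, 0.544 and 0.543 CPM after Egf, against 0.128, 0.230 and 0.0586 CPM after vehicle (2.08 ± 0.77, adjusted p = 0.613). In liver it had 0.530, 0.392, 0.630 and 0.377 CPM after Egf, against 0.287, 0.125 and 0.209 CPM after vehicle. Neither pair of groups overlapped. In kidney it had at most 0.248 CPM in a library at 2 h, which is 4 reads. Of the members, Ly6c2 and Ifitm6 in heart (6.81% of all genes there), F13a1 in kidney (6.31%) and Ly6c2, F13a1 and Ifitm6 in liver (16%) were those without overlap at 2 h.

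**Figure D3:**
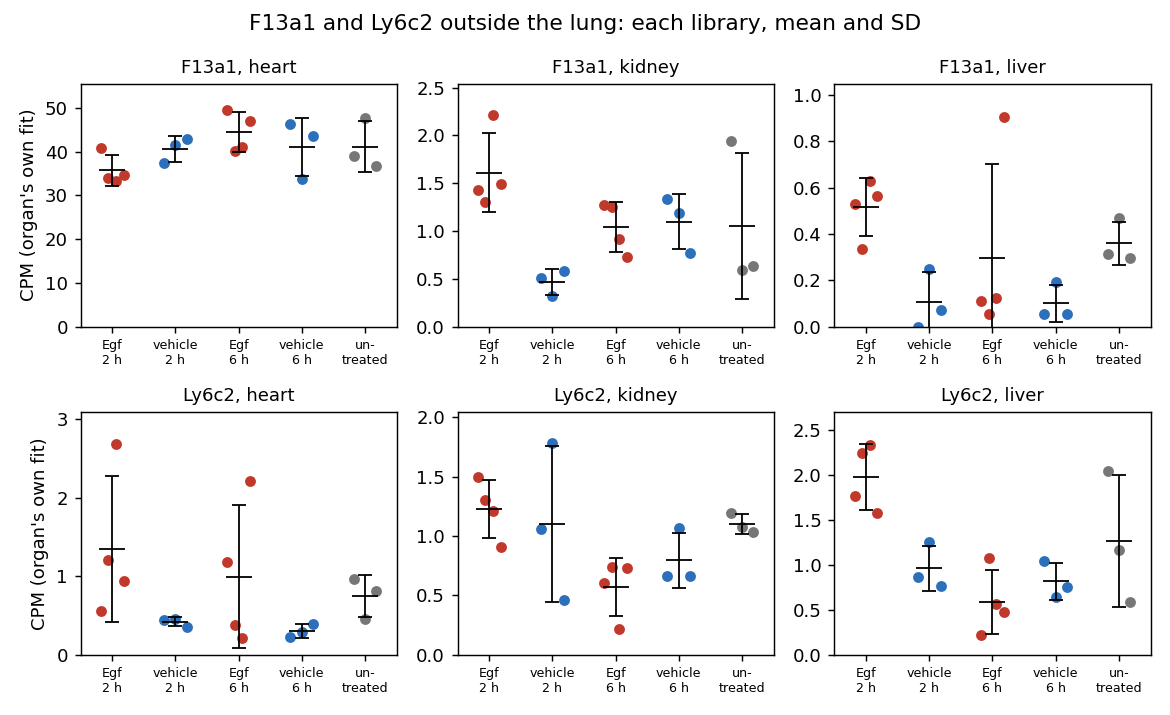
Each point is 1 library in CPM on its organ's own scale, for F13a1 (upper row) and Ly6c2 (lower row) in heart, kidney and liver, with the group mean and SD. Egf points at 2 h lie above all vehicle points at 2 h for F13a1 in kidney and liver and for Ly6c2 in heart and liver, at levels far under those of lung except for F13a1 in heart.

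The remaining members gave no separation outside the lung at 2 h. Clec4a1 changed by 0.07 in heart, -0.03 in kidney and 0.12 in liver, with 95% intervals that end at 0.63, 0.56 and 0.72. Ms4a6c changed by 0.23, 0.60 and 0.31, with intervals that reach 0.84, 1.53 and 1.04. Ms4a4c changed by 0.86 in kidney (-0.44 to 2.16) and by 0.92 in liver (-0.08 to 1.92). Plac8 changed by -0.42 in heart (-2.06 to 1.22), -0.01 in kidney (-0.58 to 0.57) and 0.22 in liver (-0.45 to 0.89). The highest Plac8 level among the vehicle hearts, 5.04 CPM, was that of replicate 1, a library with many kidney tubule transcripts, and without it the heart change of Plac8 was 0.52.

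**Figure D4:**
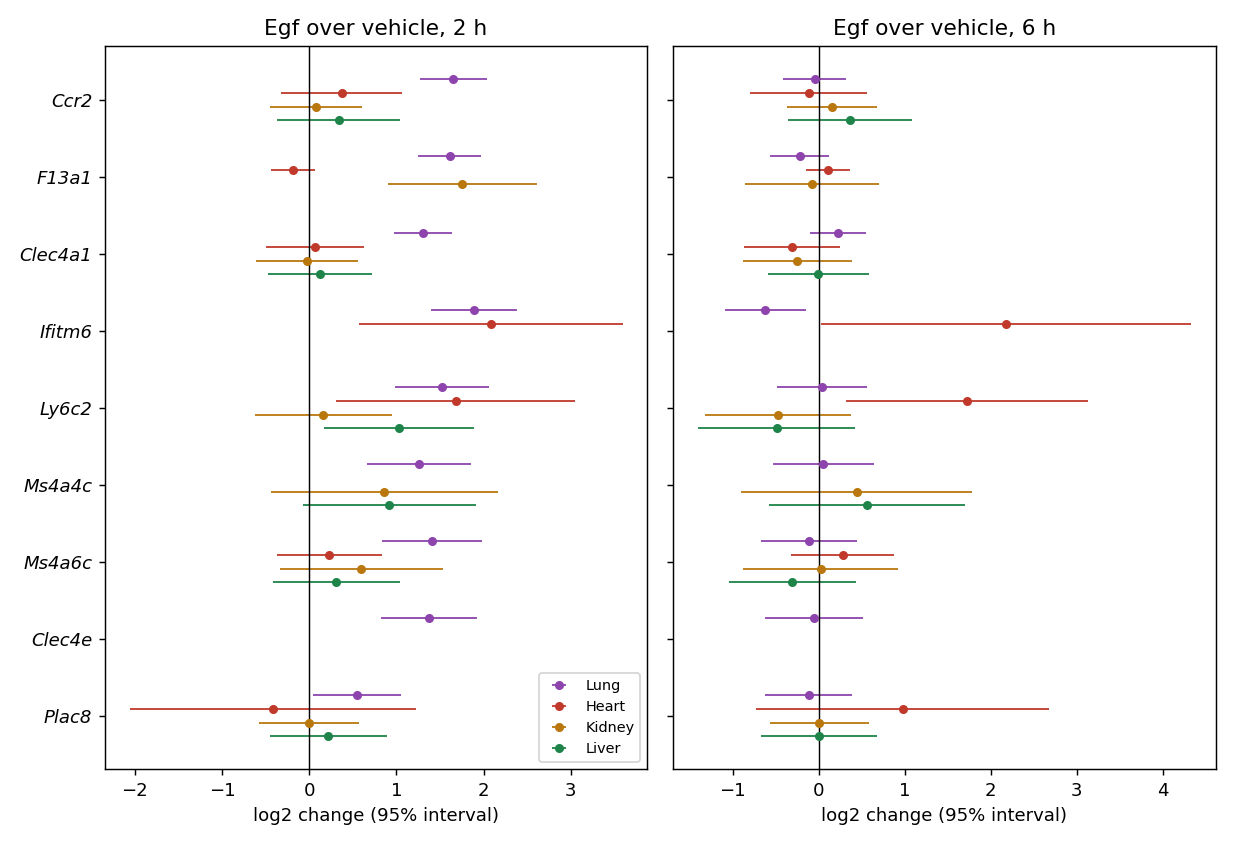
Points are log2 changes of Egf over vehicle from each organ's fit with 95% intervals, at 2 h (left) and 6 h (right), and members not tested in an organ have no point. The intervals use a normal scale and are narrower than the test implies, so one that leaves out 0 is not a call. Lung points at 2 h run from 0.55 to 1.89, those of the other organs lie mostly nearer 0 with wider intervals, and at 6 h the lung points lie at 0.22 or less. The lung intervals at 2 h come from the contrast that chose the genes and are no test.

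At 6 h 0 members passed in heart, kidney or liver, where 0.0128%, 0% and 0.0883% of all genes passed. In kidney 986 genes had an unadjusted p under 0.05. The median log2 changes were 0.28 in heart, 0.01 in kidney and 0.00 in liver. Ly6c2 in heart had 1.18, 0.386, 0.218 and 2.21 CPM after Egf, against 0.220, 0.293 and 0.396 CPM after vehicle, and its change of 1.73 ± 0.72 did not pass (adjusted p = 0.466). The groups overlapped, with Egf replicates 1 and 4 high.

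Vehicle against untreated gave no call among the members in the 3 organs either. At 2 h 0 members passed in heart, kidney and liver, beside 0.0128%, 0.0256% and 0.155% of all genes, and at 6 h 0 passed, beside 0.0192%, 0.211% and 0.67%. The medians over members were negative in all 6 comparisons, from -0.51 to -0.16. Without untreated replicate 1 they ran from -0.13 to 0.15, and 2 of the 6 were then positive. Ifitm6 in heart had 0, 0 and 0.066 CPM at 6 h after vehicle, against 0.364, 0.131 and 0.735 CPM in untreated mice (adjusted p = 0.281).

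Chemokines that Ccr2 recognises passed the test in heart and not in the other organs, although no test compared the organs for them. In heart at 2 h Ccl2 averaged 8.0 CPM after Egf and 0.979 CPM after vehicle (log2 change 3.03 ± 0.38, adjusted p = 0.0023), and Ccl7 averaged 7.43 CPM and 0.985 CPM (2.92 ± 0.52, adjusted p = 0.030). These were the 2 of 6 listed chemoattractants that rose in heart, and 0 passed in kidney or liver. In lung Ccl2 averaged 1.65 CPM after Egf and 1.02 CPM after vehicle and Ccl7 1.80 CPM and 0.918 CPM, and 0 of 6 passed there. Of all genes 0.211% passed in heart at 2 h, 0.256% in kidney, 3.92% in liver and 0.84% in lung. Transcripts of other organs also differed between the Egf and vehicle hearts. Hepatocyte genes summed to 66.5 to 9312 CPM in Egf hearts, against 66.5 to 107 CPM in vehicle hearts, and kidney tubule genes to 1.85 to 365 CPM, against 12.5 to 2980 CPM. The shares of 18S and mitochondrial RNA did not overlap between these Egf and vehicle hearts either, as given for Ly6c2, and the part of all of these in the chemokine values was not tested.

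Other genes of classical monocytes moved with the members in part. Of 15 tested in lung at 2 h, 3 passed, all higher after Egf, beside 0.84% of all genes, and the median change was 0.34. This contrast chose the members, and the lists were set with earlier results known. The lung calls of listed genes at 2 h, here and below, are therefore a description. Ccl9, a chemokine, averaged 51.7 CPM after Egf and 21.4 CPM after vehicle (1.27 ± 0.25), Itgam, the CD11b integrin chain, 6.51 and 2.90 CPM (1.16 ± 0.25), and Fcgr1, a high-affinity Fc receptor, 8.66 and 4.09 CPM (1.08 ± 0.21). Lyz2, the lysozyme that lung macrophages make in bulk, had a change of 0.03 ± 0.10. In heart 1 of 15 rose, the endotoxin co-receptor Cd14 (1.04 ± 0.17, adjusted p = 0.015), in liver 1 of 14, Chil3 (4.62 ± 0.87, adjusted p = 0.0036), and in kidney 0 of 14. The shares of all genes that passed were 0.211% in heart, 3.92% in liver and 0.256% in kidney.

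Genes of nonclassical monocytes gave no call at 2 h in any organ. In lung 0 of 11 passed, with a median change of 0.12, and Cx3cr1, their chemokine receptor, averaged 15.3 CPM after Egf and 10.5 CPM after vehicle (0.54 ± 0.22). Of 22 close relatives of the members tested in lung at 2 h 1 passed, beside 0.84% of all genes, and the median change was 0.07. The gene called was the chemokine receptor Ccr1, at 24.4 CPM after Egf and 10.8 CPM after vehicle (1.17 ± 0.15). Ly6c1, which shares sequence with Ly6c2 and is strong in endothelium, averaged 324 CPM after Egf and 309 CPM after vehicle (0.07 ± 0.15). Ifitm1, Ifitm2 and Ifitm3 had changes between -0.03 and -0.00.

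Some markers of neutrophils rose with the monocyte genes in lung. Of 11 tested at 2 h, 3 passed, all higher after Egf, beside 0.84% of all genes, and the median log2 change was 0.84. These calls again come from the contrast that chose the members. The genes called were the cytokine receptor Csf3r (1.48 ± 0.26), the chemokine receptor Cxcr2 (1.62 ± 0.35) and the collagenase Mmp8 (1.22 ± 0.27). The list summed to 261 to 407 CPM in Egf lungs at 2 h, against 152 to 253 CPM in vehicle lungs. It summed to 400, 748 and 235 CPM in vehicle lungs at 6 h and to 266, 539 and 133 CPM in untreated lungs. The Egf range at 2 h thus lay inside the range of lungs without Egf. In heart at 2 h the sum was 5.41 to 38.9 CPM after Egf, against 2.41 to 3.75 CPM after vehicle. In kidney it was 2.80 to 4.01 CPM, against 2.04 to 2.17 CPM, and in liver 3.84 to 10.6 CPM, against 2.33 to 3.81 CPM. The groups did not overlap in these organs, but at low levels, and in liver they nearly met. Single genes without overlap made up 6.81% of all genes in heart, 6.31% in kidney and 16% in liver. Of the listed genes tested in these organs, 0 of 6 passed in heart, 0 of 1 in kidney and 0 of 5 in liver. Of all genes 0.211%, 0.256% and 3.92% passed there. The part of these cells in the monocyte values was not tested.

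Markers of other cells were summed in the lung libraries at 2 h as well. B cell genes summed to 37.7 to 82.5 CPM after Egf, against 70.6 to 96.7 CPM after vehicle, and T cell genes to 16.3 to 26.9 CPM, against 25.4 to 31.2 CPM. Endothelial genes summed to 3973 to 4587 CPM, against 3757 to 5019 CPM, and resident macrophage genes to 216 to 242 CPM, against 224 to 252 CPM. Hepatocyte transcripts, which do not belong to lung, summed to 408 to 3374 CPM after Egf, against 28.1 to 625 CPM after vehicle. Of the 18 interferon-stimulated genes 0 passed in lung at 2 h, beside 0.84% of all genes. Their sums overlapped at 353 to 437 CPM after Egf and 422 to 449 CPM after vehicle. The part of these cells and transcripts in the monocyte values was not tested.

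In lung the members varied together over the 17 libraries. The Pearson correlation of each with the mean of the other 8 ran from 0.746 for Plac8 to 0.959 for Ly6c2. Over the 51 libraries of the other organs, each centred on its organ's mean, Clec4e was left out, since no fit of these organs tested it. The correlation of each remaining member with the mean of the others ran there from 0.178 for Clec4a1 to 0.718 for Ms4a4c. These are descriptions, the first over libraries that include the Egf lungs at 2 h, and the genes share library and depth in every point.

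The 6 genes most like the members in lung were Cd300a (r = 0.941), Gpr141, Ifi204, Tlr13, Cybb and Slfn1 (r = 0.907), of 11427 genes at 5 CPM or more. Cybb encodes a subunit of the phagocyte NADPH oxidase, and Tlr13 a receptor for bacterial ribosomal RNA. In the other organs, again without Clec4e, the 8 genes most like the members were Plek (r = 0.670), Slfn2, Isg15, Psmb9, Dhrs9, Irgm1, Slc11a1 and Irf9 (r = 0.621), of 11515 genes. Isg15, Psmb9, Irgm1 and Irf9 are interferon-inducible genes. The list of 18 interferon-stimulated genes holds Isg15 but not the others, and its sum was highest in untreated replicate 1 of all 3 organs. Of the 6 genes named in lung, 0 were among these 8.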

How the data were processed

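RNA of whole lung, heart, kidney and liver was measured in 68 polyA libraries, 17 per organ in 5 groups. The authors deposited raw read counts per gene, with build mm39, HISAT2 2.0.5 and featureCounts 1.5.0-p3 named in the submitters' processing notes, and the libraries were non-directional per the labels' protocols. Totals ran from 13271813 to 24972005 reads, and intervals cover the spread between libraries of one group.

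The members and marker lists were chosen with earlier results of these data known. Counts were tested with the edgeR 4.0.16 quasi-likelihood test (R 4.3.3, TMM, filterByExpr, robust) in a fit over the 17 libraries of each organ, and in 1 fit over all 68 for comparisons of organs. Benjamini-Hochberg adjustment ran over the whole table of genes that a fit tested, and genes with an adjusted p under 0.05 count as called. No p is given for the members in lung at 2 h. The fits were tested on simulated data. Listed genes were named where they were among the 3 smallest adjusted p-values of their list. Lyz2, Cx3cr1, Ly6c1, Ifitm1, Ifitm2, Ifitm3 and, in lung, Ccl2 and Ccl7 were named after their values were seen. Likeness used log2 CPM with a prior count of 2, centred per organ. Of the 8 genes that rule takes in lung, 2 are not reported here.

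The alternatives were DESeq2 1.42.0, size factors by RLE, every gene with a read kept, each library left out, a replicate block, the 2 compared groups alone, and fits without libraries that carry another organ's transcripts. A library carried another organ where that organ's markers reached 500 CPM and exceeded 10 times their median in the library's organ. No kidney or liver library met these limits, those with adrenal transcripts included. Libraries with the same replicate number were compared in 16 comparisons. In 2 of them, vehicle against untreated at 6 h in heart and in lung, every pair's deviations correlated above 0.1 (r from 0.295 to 0.614 and from 0.112 to 0.389), which the labels do not explain. No pair of libraries of one group was a duplicate, with a chi-square per gene of at least 7.06.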

Additional observations from a re-analysis of the deposited data

Results flagged for a closer look

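Among the 70 sets of 4 Egf libraries checked, 4 had a library far from its group, where chance gives about 1 in 20 sets. Ccr2 in liver at 2 h had 1.01 CPM in Egf replicate 3, against 1.91 to 2.01 CPM in the other 3 livers. F13a1 in liver at 6 h had 0.903 CPM in Egf replicate 4, against 0.0535 to 0.124 CPM in the others. Ifitm6 in lung at 2 h had 11.7 CPM in Egf replicate 1, against 6.97 to 7.64 CPM in the others. Ms4a4c in heart at 2 h had 1.05 CPM in Egf replicate 3, against 0.323 to 0.388 CPM in the others.

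F13a1 was flagged because its 2 h response to Egf differed among heart, kidney and liver (edgeR quasi-likelihood test, adjusted p = 0.0092). The heart change lay below the kidney change by 1.94 ± 0.49 and below the liver change by 2.36 ± 0.74 on the log2 scale. The liver counts of F13a1 were too low for that organ's own fit. The adjusted p of this edgeR test stayed between 3.7e-05 and 0.030 over 27 other settings.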

How the results depend on the processing

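Of 240 recomputed counts and medians that answer a comparison, 239 stayed close to the main value. The lung median had to keep its sign and stay within the spread between libraries. A count of members called above 0 could change by some members and still be taken as close. The counts for lung against heart and against liver did change in this way. The exception was Egf against vehicle at 2 h in kidney, where DESeq2 called 1 member (F13a1) in place of 0, and the cause was not tested. The members called were 0 under every setting run for the other Egf and vehicle comparisons outside lung at 2 h, 7 to 9 for lung against heart, 6 to 9 for lung against liver, 9 for lung against kidney and 1 among organs. The median lung change at 2 h ran from 1.27 to 1.56 when single libraries were left out, with all 9 members positive, and was 1.45 with the replicate block. The replicate block changed no call of the Egf and vehicle comparisons, and with it 9 members passed against heart, where Clec4a1 joined. A block by the number that the organs' labels share, added after seeing the data, gave 9 members against heart, 9 against kidney, 8 against liver and 1 among organs. Some members near 0 changed sign at 2 h. Without libraries carrying another organ, heart changes were -0.089 for Clec4a1, -0.0053 for Ms4a6c and 0.52 for Plac8. Of the 2 h hearts that fit left out vehicle replicate 1 and kept Egf replicate 3, which held 9312 CPM of hepatocyte genes. With single libraries left out, heart changes ran from -0.13 to 0.42 for Clec4a1, from -0.0033 to 0.62 for Ms4a6c and from -0.89 to 0.52 for Plac8, and kidney changes from -0.16 to 0.29 for Ccr2, from -0.23 to 0.34 for Clec4a1, from -0.21 to 0.67 for Ly6c2 and from -0.28 to 0.41 for Plac8. Clec4a1 in kidney was at 0.022 with the replicate block. The cause was not tested. Lung against heart and vehicle against untreated in heart could not be recomputed without the libraries carrying another organ, since these include all 3 untreated hearts. Low counts limit some members outside the lung, with a median of 7 Ly6c2 reads in heart and 4 F13a1 reads in liver.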
